A study of Homo sapiens with 8 samples.

Results

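The tripartite motif (TRIM) genes were followed in SKBR3 cells, an established line from a human breast tumour with amplified ERBB2 (HER2), when the pioneer transcription factor FOXA1 was knocked down. Members were all rows of the deposited count table whose symbol was TRIM, a number and at most a letter A, B or C. There were 58 such rows among 30434 genes, with 57 different symbols. The control group (4 libraries) was labelled wild type. The knockdown group (4 libraries) came from a stable line made with 3 different short hairpin RNAs against FOXA1, carried by lentiviruses, and both groups were grown in the same DMEM medium with fetal bovine serum. No control hairpin or vector is named for the controls in the sources used here, so viral transduction and loss of FOXA1 cannot be told apart by this design. The labels do not say whether replicates were separate cultures, so p-values measure the spread between these libraries, which may be technical.

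Most TRIM proteins share an N-terminal RING domain, one or more B-box zinc fingers and a coiled coil, and most act as ubiquitin ligases. They are sorted into classes by what follows the coiled coil: a PRY-SPRY domain that binds protein targets, NHL repeats that bind proteins or RNA, a PHD finger with a bromodomain that reads histones, or a COS box that binds microtubules. The family is best known for restricting viruses and tuning the sensing of foreign RNA and DNA, and several members act as co-regulators of transcription, including at nuclear receptors in breast epithelium.

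Library totals ran from 19087878 to 23786684 counts. FOXA1 itself had 4180, 4239, 4071 and 4397 counts in the controls and 89, 87, 83 and 92 in the knockdown libraries, which left 2.06% of the control level. Epithelial and ERBB2-amplicon markers (ERBB2, GRB7, KRT8, KRT18, KRT19 and EPCAM) were abundant in every library, with a summed level of 16540 to 18450 CPM (counts over the TMM-scaled library total, times 1000000) in control and 10990 to 11860 CPM in knockdown. These markers moved in opposite directions: ERBB2 (mean 7308 to 1340 CPM), GRB7 and KRT19 (2645 to 723 CPM) fell, while KRT8 (4519 to 5619 CPM), KRT18 (2312 to 3457 CPM) and EPCAM rose. The leukocyte marker PTPRC had at most 3 counts in any library and the fibroblast marker DCN at most 1, while the fibroblast collagen COL3A1 had at most 1 count in control and 90 to 104 in knockdown. Summed leukocyte markers were at 5.449 to 6.938 CPM in control and 1.388 to 2.465 in knockdown, fibroblast markers at 5.266 to 6.981 and 10.8 to 11.92, and endothelial markers at 20.94 to 22.21 and 19.87 to 22.49. CD68 alone carried the lower leukocyte sum (mean 4.94 to 0.589 CPM), while CD14 rose (0.181 to 0.533 CPM) and LYZ was not called. Among fibroblast markers PDGFRB also rose (mean 0.41 to 2.83 CPM), while COL1A1 fell (5.38 to 4.33 CPM). The endothelial sum joined a fall of VWF (mean 5.22 to 0.845 CPM) and a rise of CDH5 (16.1 to 20.1 CPM). Of these lists LUM and CD3E had no row. The part of such differences in the TRIM results was not tested. In bulk RNA, fewer cells expressing a gene and less RNA per cell cannot be told apart.

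One row needed care before any count. The symbol column gave TRIM74 to 2 rows, and the identifier of the more abundant row (ENSG00000174353.17) is named STAG3L3, a pseudogene beside TRIM74, in both GENCODE 29 and a current Ensembl name table. That row had 57.3 CPM ± 1.62 in the controls and 35.1 ± 2.07 in the knockdown libraries (± SD, 4 libraries per group). The row whose identifier is TRIM74 (ENSG00000155428.12) had at most 5 counts in a library. The STAG3L3 row is kept in counts taken by symbol, and it is left out of the classes below.

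Of the 58 rows, 51 had enough counts to be tested, with edgeR's quasi-likelihood test, and p-values were adjusted over 16430 genes by Benjamini-Hochberg. FOXA1 knockdown came with changes in both directions: 22 rows were lower and 19 higher at an adjusted p under 0.05, together 80.4% of the 51. Over all tested genes the same call was made for 77.1%, with 37.7% lower and 39.4% higher. A change of at least 2-fold was called for 15 rows (29.4%), 9 lower and 6 higher, against 28.3% of all tested genes (13.4% lower and 14.9% higher). These shares lie near the background, so the number of calls is not a result about the family. Control and knockdown CPM ranges were separate for 38 rows, or 74.5%, against 72.0% of all tested genes. The median log2 fold change of knockdown over control, called the log2 ratio below, was -0.10 over the tested rows and 0.02 over all tested genes, and the median of its absolute value was 0.47 and 0.51.

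**Figure D1:**
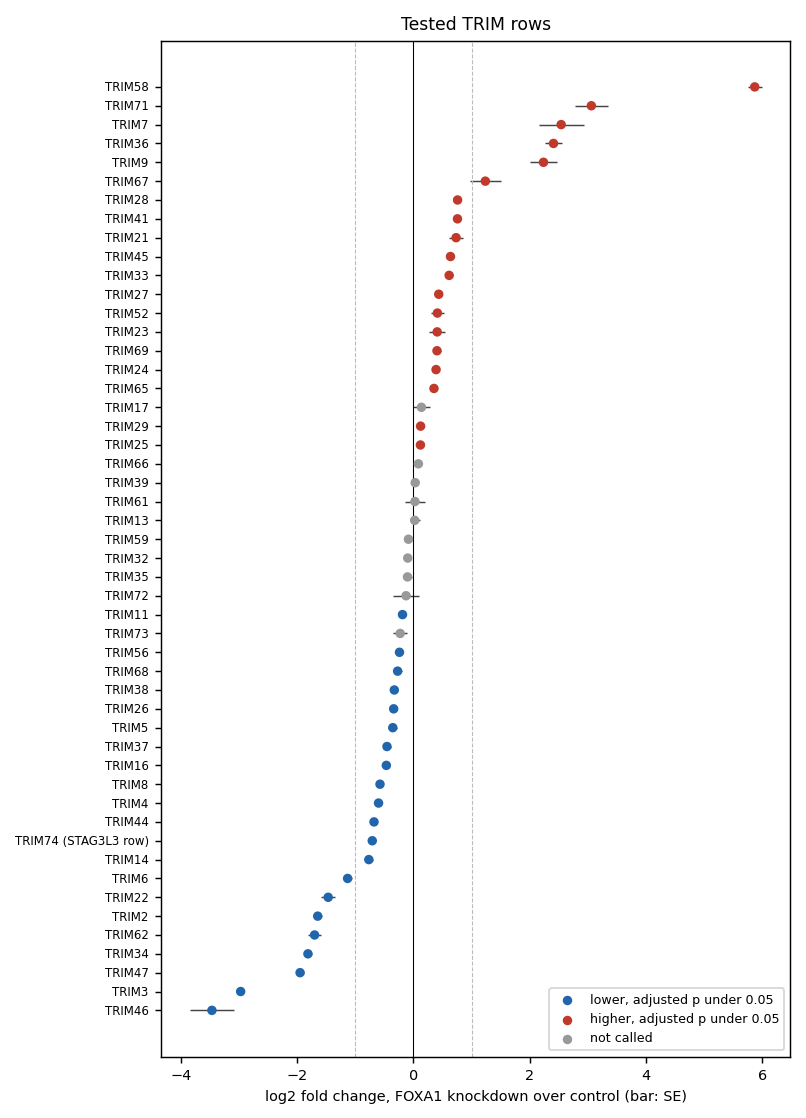
Log2 ratio of FOXA1 knockdown over control for the tested TRIM rows, with bars of 1 SE and dashed lines at a 2-fold change. TRIM31, at 0 counts in every knockdown library, is left out, since its fold is only a bound. The points run from TRIM46 at -3.47 to TRIM58 at 5.87, with the uncalled rows (grey) near 0.

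The summed level of the 58 rows came to 2459 CPM ± 29.9 in the controls and 2337 ± 46.2 in the knockdown libraries (± SD, 4 libraries per group). TRIM28 made up 14.04% ± 0.668 of that sum in control and 25.01% ± 0.462 in knockdown. Without TRIM28 the sum was 2114 CPM ± 20.2 in the controls and 1753 ± 38.04 in the knockdown libraries. Rows that rose and fell by at least 2-fold differed in where they started. By control mean, all 6 rises began between 0.251 and 0.594 CPM, while the 9 falls began between 0.763 and 140.4 CPM, 8 of them above 4 CPM. Genes this low pass the filter through the group in which they are higher, so a low start and a rise go together by construction.

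The PHD-bromodomain class, the TIF1 co-regulators of transcription, had 4 members, of which 3 rose, none fell and 1 was not called (all tested genes: 39.4% higher, 37.7% lower). TRIM28 (KAP1), the co-repressor recruited by KRAB zinc finger proteins to silence retroelements, was at 340, 329, 374 and 339 CPM in the controls and at 583, 581, 570 and 605 CPM in the knockdown libraries. Every knockdown library lay above every control library, with a log2 ratio of 0.76 (SE 0.0436, edgeR adjusted p of 1.00e-15). TRIM33, a ubiquitin ligase of the SMAD pathway, was at 136, 134, 117 and 129 CPM in control and 192, 209, 199 and 189 CPM in knockdown (log2 ratio 0.61 with SE 0.0591). TRIM24, a histone reader and nuclear receptor co-activator, went from 57.6 CPM ± 3.19 to 75.4 CPM ± 1.80 (± SD, 4 libraries per group; log2 ratio 0.39 with SE 0.0431). Like TRIM28, neither TRIM33 nor TRIM24 overlapped between the groups, as for 72.0% of all tested genes. TRIM66, the fourth member, was at 13.6 CPM ± 0.811 and 14.4 CPM ± 0.763, with a log2 ratio of 0.09 (95% interval -0.06 to 0.23, edgeR adjusted p of 0.266). It was called higher when scaled by library size only (0.17, edgeR adjusted p of 0.0313) and with the median log2 ratio of its 50 nearest tested genes removed, a regional shift (0.22, edgeR adjusted p of 0.00519). It overlaps the abundant RPL27A on the opposite strand by 94 bp of exon, and use of strand in the counting is not given in the sources used here.

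The listed partners through which TRIM28 silences chromatin, among them the histone methyltransferase SETDB1 and the heterochromatin protein 1 genes, mostly rose. Of 10 tested partners 8 rose, none fell and 2 were not called (background 39.4% higher), with a median log2 ratio of 0.41. The heterochromatin protein gene CBX5 rose most, from 160.8 CPM ± 3.70 to 332.0 CPM ± 16.2 (± SD, 4 libraries per group; log2 ratio 1.05 with SE 0.0386). SETDB1 rose from 52.9 CPM ± 1.53 to 78.6 CPM ± 2.25, and the silencing-complex gene TASOR from 63.8 CPM ± 3.80 to 94.97 CPM ± 5.81 (± SD, 4 libraries per group). The 2 members not called were MORC3 (log2 ratio 0.14) and ATF7IP (0.11, edgeR adjusted p of 0.053).

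In the NHL-repeat class 1 of 4 members rose, 2 fell and 1 was not called (all tested genes: 39.4% higher, 37.7% lower). TRIM3 (ENSG00000110171.20, chromosome 11, 6448613 to 6474459, minus strand, GENCODE 29 on GRCh38), a ubiquitin ligase enriched in brain, was at 139, 135, 144 and 144 CPM in the controls and at 16.9, 17.8, 17.3 and 19.6 CPM in the knockdown libraries. The knockdown libraries kept 12.8% of the control level (log2 ratio -2.97 with SE 0.0531 and an edgeR adjusted p of 1.22e-25). The groups did not overlap for TRIM3, as for 72.0% of all tested genes. TRIM2 (ENSG00000109654.16, chromosome 4, 153152342 to 153339320, plus strand), a ligase known for acting on neurofilament light chain in neurons, was at 124, 120, 101 and 122 CPM in control and 36.6, 39.8, 37.99 and 34.8 CPM in knockdown. Control replicate 3 was the lowest control for TRIM2, but still far above the knockdown libraries (log2 ratio -1.65 with SE 0.0819 and an edgeR adjusted p of 3.67e-12). TRIM71 (LIN41; ENSG00000206557.6, chromosome 3, 32818018 to 32897826, plus strand), an RNA-binding repressor of embryonic cells and a classical let-7 target, was barely detected in control, at 0.412, 0.182, 0.285 and 0.345 CPM. It was at 2.08, 3.03, 3.11 and 2.17 CPM in knockdown (log2 ratio 3.06 with SE 0.279 and an edgeR adjusted p of 5.14e-11). TRIM71 passed the filter through the knockdown group, in which it was higher. TRIM32, mutated in a limb-girdle muscular dystrophy, was not called, at 25.4 CPM ± 0.805 and 23.7 CPM ± 0.802 (± SD, 4 libraries per group; log2 ratio -0.10, 95% interval -0.18 to -0.02). Its adjusted p was 0.0925 by edgeR. Intervals come from the spread of log2 CPM and are not adjusted for the number of genes. With the regional shift of its neighbours (-0.54) removed, TRIM32 was called higher, at 0.45 (edgeR adjusted p of 3.17e-08).

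The COS-box genes with a fibronectin domain, which bind microtubules, had 4 tested members, and TRIM42, a further one, had at most 2 counts in a library. TRIM46 (ENSG00000163462.18, chromosome 1, 155173787 to 155184971, plus strand), which bundles microtubules at the start of axons, had 110, 94, 96 and 96 counts in control and 14, 13, 4 and 5 in knockdown. That is 5.04, 4.27, 4.56 and 4.14 CPM against 0.595, 0.533, 0.204 and 0.231 CPM (log2 ratio -3.47 with SE 0.376 and an edgeR adjusted p of 2.30e-13). Knockdown replicates 1 and 2 were above replicates 3 and 4, and all were far below control. The other 3 tested members rose from under 1 CPM (all tested genes: 39.4% higher, 37.7% lower). As said above, genes this low pass the filter through the group in which they are higher. TRIM9 (ENSG00000100505.13, chromosome 14, 50975262 to 51096061, minus strand), a ligase of netrin-guided axon growth, was at 0.458, 0.726, 0.760 and 0.431 CPM in control and 2.68, 2.42, 3.06 and 3.10 CPM in knockdown (log2 ratio 2.24 with SE 0.225). TRIM36 (ENSG00000152503.10, chromosome 5, 115124762 to 115180546, minus strand) had 6, 6, 6 and 9 counts in control and 44, 34, 32 and 37 in knockdown, which gave a log2 ratio of 2.41 (SE 0.143). With the regional shift of its neighbours (0.60) removed, TRIM36 was at 1.82. TRIM67, a close relative of TRIM9, had 7, 4, 8 and 5 counts against 12, 19, 11 and 16 (log2 ratio 1.24 with SE 0.27). No library of one group overlapped the other for any of the 3, as for 72.0% of all tested genes, although counts were low. The muscle COS-box genes TRIM54 and TRIM55 had at most 1 count in any library, and TRIM63, a ligase of muscle wasting, had 0 counts in every control library and 5 to 9 in the knockdown libraries. TRIM63 did not pass the filter. Against a floor of 3 counts per library it was at least 2.22-fold higher in knockdown, a bound that covers counting error only.

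The PRY-SPRY class was the largest, with 23 tested members, of which 8 rose, 11 fell and 4 were not called, against 39.4% higher and 37.7% lower over all tested genes. Its median log2 ratio was -0.13. At least 2-fold were 5 of the falls and 2 of the rises (all tested genes: 13.4% lower and 14.9% higher at that size). The largest rise of the family was here. TRIM58 (ENSG00000162722.9, chromosome 1, 247857199 to 247878205, plus strand), a ligase that degrades dynein in maturing red cells, had 6, 5, 6 and 5 counts in control and 350, 390, 249 and 345 in knockdown. In CPM this was 0.275, 0.227, 0.285 and 0.216 against 14.9, 15.98, 12.7 and 15.96 (log2 ratio 5.87 with SE 0.122 and an edgeR adjusted p of 3.55e-21). TRIM7 (ENSG00000146054.18, chromosome 5, 181193924 to 181205293, minus strand), a partner of glycogenin, had 11, 4, 14 and 9 counts against 53, 72, 44 and 58 (log2 ratio 2.54 with SE 0.388). The groups did not overlap for either gene, as for 72.0% of all tested genes, and TRIM7 varied more in control than TRIM58 did. Both genes passed the filter through the knockdown group, in which they were higher.

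TRIM47 (ENSG00000132481.7, chromosome 17, 75874161 to 75878575, minus strand), a ligase first described in brain tumours, was second in length-scaled level in control. It stood at 101, 104, 115 and 98.6 CPM in control and 27.4, 27.7, 24.1 and 28.9 CPM in knockdown (log2 ratio -1.95 with SE 0.0749 and an edgeR adjusted p of 1.24e-18). An antisense gene with a mean of 30.12 counts covers 1618 of its 3142 exon bp, against a mean of 1453 counts for TRIM47. TRIM62 (DEAR1; ENSG00000116525.14, chromosome 1, 33145402 to 33182059, minus strand), known as a regulator of polarity in mammary epithelium, was at 22.5, 21.9, 23.4 and 21.3 CPM in control and 6.72, 7.70, 5.55 and 7.26 CPM in knockdown. It kept 30.6% of the control level (log2 ratio -1.70 with SE 0.106 and an edgeR adjusted p of 4.24e-16).

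The TRIM6, TRIM34, TRIM5 and TRIM22 genes lie side by side on the short arm of chromosome 11, the locus of the retroviral restriction factor TRIM5. All 4 fell, beside 37.7% lower over all tested genes. TRIM34 (ENSG00000258659.7, chromosome 11, 5619764 to 5644398, plus strand) was at 31.2, 32.3, 28.7 and 30.6 CPM in control and 8.33, 9.91, 8.35 and 8.24 CPM in knockdown (log2 ratio -1.81 with SE 0.0728). TRIM22 (ENSG00000132274.16, chromosome 11, 5689689 to 5737089, plus strand), an interferon-induced antiviral gene, was at 3.94, 4.27, 3.47 and 4.65 CPM against 1.53, 1.64, 1.27 and 1.43 CPM (log2 ratio -1.47 with SE 0.117). TRIM6 (ENSG00000121236.21, chromosome 11, 5596109 to 5612958, plus strand), which builds free ubiquitin chains in interferon signalling, was at 19.7, 20.1, 17.7 and 19.95 CPM against 9.73, 8.40, 8.30 and 8.88 CPM (log2 ratio -1.13 with SE 0.0674). TRIM5 (ENSG00000132256.19) fell least, from 12.7, 15.6, 12.7 and 12.4 CPM to 10.6, 10.3, 10.8 and 10.0 CPM (log2 ratio -0.36 with SE 0.0794 and an edgeR adjusted p of 0.000266). The groups did not overlap for any of the 4, as for 72.0% of all tested genes. The share of the control level that remained ran from 28.3% for TRIM34 to 78.2% for TRIM5. Among the 50 nearest tested genes the median log2 ratio was -0.38 at TRIM6, TRIM34 and TRIM22 and -0.44 at TRIM5. With that regional shift removed TRIM5 was at 0.08 (edgeR adjusted p of 0.342) and TRIM6 at -0.75, while TRIM34 and TRIM22 stayed at -1.43 and -1.09. The read-through gene TRIM6-TRIM34 shares 1158 exon bp with TRIM6 and 2233 with TRIM34. It had 0 or 7 counts in the control libraries, 22 in knockdown replicate 4 and 0 in the other knockdown libraries. TRIM5 and TRIM22 are similar in sequence, which leaves reads that could fit both uncertain.

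**Figure D2:**
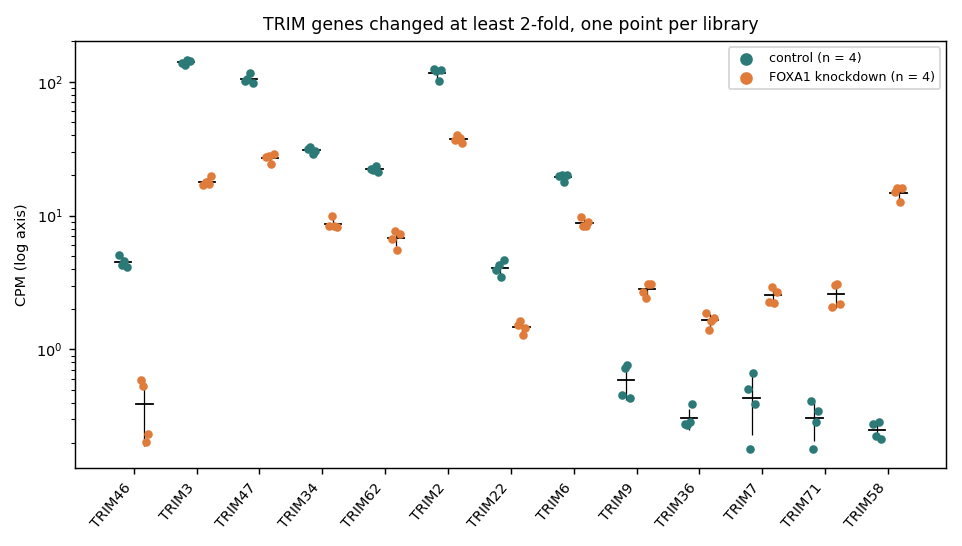
Level in CPM on a log axis of the 13 TRIM genes with a called change of at least 2-fold and a mean of at least 20 counts, with 1 point per library (n = 4 per group), the group mean as a line and the SD as a bar. The groups are separate for each gene, as for 72.0% of all tested genes. The 13 were chosen for a called change of this size, which makes separation likely. By control mean, the 8 that fell start above 4 CPM and the 5 that rose start below 0.6 CPM. Genes this low pass the filter through the group in which they are higher.

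Other PRY-SPRY genes changed by less than 2-fold. TRIM21, the cytosolic antibody receptor, was at 9.39, 12.0, 11.7 and 11.3 CPM in control and 18.7, 15.7, 20.9 and 18.7 CPM in knockdown (log2 ratio 0.73 with SE 0.117). It lies on the same chromosome arm as the TRIM5 cluster, its 50 nearest tested genes had a median of -0.56, and with that removed it was at 1.29. TRIM41 (log2 ratio 0.76 with SE 0.0273) and TRIM7 are neighbours on chromosome 5 with TRIM52 of the class without a named C-terminal domain (0.41, SE 0.114). All 3 rose, beside 39.4% higher over all tested genes. Their neighbours were higher too, with medians of 0.59 at TRIM41 and TRIM7 and 0.62 at TRIM52. With the regional shift removed TRIM7 was at 1.96, TRIM41 at 0.17 and TRIM52, now lower, at -0.21 (edgeR adjusted p of 0.0269). An antisense gene with a mean of 150.38 counts covers 1868 of the 6562 exon bp of TRIM52, against 472.9 counts for TRIM52 itself. TRIM27, a ligase also known as RET finger protein, rose from 67.5 CPM ± 2.08 to 91.4 CPM ± 3.40, and TRIM65 from 31.2 CPM ± 1.01 to 39.8 CPM ± 2.07 (± SD, 4 libraries per group). TRIM65 lies 1759 bp from TRIM47 on the same strand, and the pair moved in opposite directions.

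TRIM4 fell from 59.9 CPM ± 1.24 to 39.5 CPM ± 1.48, TRIM26 from 90.9 CPM ± 3.18 to 71.8 CPM ± 1.45 and TRIM38 from 37.0 CPM ± 1.62 to 29.5 CPM ± 1.64 (± SD, 4 libraries per group). TRIM26 and TRIM38 restrain or tune innate signalling. None of the 3 overlapped between groups, as for 72.0% of all tested genes. TRIM11 had a log2 ratio of -0.19 (SE 0.0479) and TRIM68, a co-activator of the androgen receptor, of -0.27 (SE 0.0678). TRIM68 turned to 0.28 with the regional shift removed (edgeR adjusted p of 0.000715). TRIM25, the ligase that activates the RNA sensor RIG-I, was at 115, 121, 128 and 116 CPM against 127, 134, 126 and 136 CPM. These ranges overlapped, and the call (log2 ratio 0.12 with SE 0.0443 and an edgeR adjusted p of 0.00902) was lost without control replicate 1 (adjusted p of 0.0626) and with the regional shift removed, where the value was -0.06. The 4 not called were TRIM17, TRIM35, TRIM39 and TRIM72. TRIM35 was called lower with the regional shift removed (log2 ratio -0.195, edgeR adjusted p of 0.00788) and without knockdown replicate 4 (-0.162, edgeR adjusted p of 0.0248). The smallest change was in TRIM39, at 13.7 CPM ± 0.452 and 13.96 CPM ± 0.874 (± SD, 4 libraries per group; log2 ratio 0.03, 95% interval -0.09 to 0.15). HCG18 overlaps 517 bp of its exons on the opposite strand.

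Of 4 members listed here as without a RING domain 3 fell and 1, TRIM29, was called higher (all tested genes: 37.7% lower, 39.4% higher). The list need not hold every such member. TRIM14, which works as an adaptor at mitochondria in RNA sensing, fell from 99.2 CPM ± 5.14 to 58.2 CPM ± 4.18 (log2 ratio -0.77 with SE 0.0632). TRIM44 fell from 147.0 CPM ± 4.11 to 91.9 CPM ± 2.63 (-0.68, SE 0.0289) and TRIM16 from 55.7 CPM ± 2.81 to 40.4 CPM ± 0.999 (-0.47, SE 0.0408; ± SD, 4 libraries per group). With the regional shift removed TRIM44 was at -0.31. TRIM14 overlaps NANS on the opposite strand by 422 bp of exon. TRIM16L, a near copy of TRIM16 whose symbol is outside the rule, rose from 7.10 CPM ± 0.194 to 9.96 CPM ± 0.607 (log2 ratio 0.49), and reads shared by the copies make both values uncertain. TRIM29, found in basal epithelium, was at 115, 120, 126 and 109 CPM against 129, 127, 122 and 133 CPM. The groups overlapped, and its call (log2 ratio 0.12 with SE 0.0524 and an edgeR adjusted p of 0.0117) was lost without control replicate 1 (adjusted p of 0.0557), without control replicate 4 (0.0989) and without knockdown replicate 4 (0.0515). With the regional shift removed TRIM29 was at 0.43.

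In the class with no named C-terminal domain, 3 of 6 tested members fell, 1 rose and 2 were not called, beside 37.7% lower and 39.4% higher over all tested genes. TRIM31, a ligase of gut epithelium, had 19, 15, 18 and 15 counts in control, and none was counted in any knockdown library (0 in all 4). Against a floor of 3 counts in the smallest knockdown library it was at least 4.99-fold lower, with an edgeR adjusted p of 7.49e-09. TRIM31 passed the filter through the control group, in which it was higher. TRIM56, a ligase of DNA and RNA sensing, fell from 199.2 CPM ± 7.28 to 168.6 CPM ± 8.25, and TRIM8, a regulator of cytokine signalling, from 25.2 CPM ± 0.648 to 16.9 CPM ± 0.317 (± SD, 4 libraries per group). TRIM61, at 1.75 CPM ± 0.308 and 1.80 CPM ± 0.301, changed least (log2 ratio 0.03, 95% interval -0.39 to 0.45). TRIM73, a near copy of TRIM74 that also shares exons with the abundant NSUN5P1, was at 1.55 CPM ± 0.142 and 1.33 CPM ± 0.175 (± SD, 4 libraries per group) and is uncertain.

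Of the small classes, the MATH-domain gene TRIM37, a histone and peroxisome ligase, fell from 26.0 CPM ± 2.09 to 19.01 CPM ± 0.444. TRIM45, with a filamin domain, rose from 5.85 CPM ± 0.336 to 9.08 CPM ± 0.423, and TRIM23, with an ARF domain, from 7.79 CPM ± 0.852 to 10.3 CPM ± 1.53 (± SD, 4 libraries per group). The groups of TRIM23 overlapped, and with the regional shift removed its call was lost (log2 ratio 0.13 from 0.41, edgeR adjusted p of 0.250). The membrane-anchored TRIM13 and TRIM59 were not called, at log2 ratios of 0.02 (95% interval -0.18 to 0.23) and -0.09 (95% interval -0.24 to 0.07). Both lie where neighbouring genes were lower (medians of -0.43 and -0.46), and with that removed they were higher, at 0.45 and 0.37. By contrast, TRIM59 was called lower without control replicate 3. TRIM59 overlaps the abundant SMC4 on the opposite strand by 1561 bp of exon. The 7 rows below the filter were TRIM54, TRIM55, TRIM63, TRIM42, TRIM43B, TRIM75 and the row whose identifier is TRIM74, each with at most 9 counts in a library.

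Levels of different TRIM genes were compared per kilobase of annotated exon over 50 tested genes. TRIM28 ranked 1 in both groups, at 85.6 CPM per kb in control and 145.0 in knockdown. In control TRIM47 ranked 2 (33.3 CPM per kb), TRIM3 ranked 3 and TRIM26 ranked 4 (20.8 each), so the latter pair cannot be ordered. In knockdown TRIM33 ranked 2 (20.6), TRIM26 ranked 3 (16.4) and TRIM56 ranked 4 (15.1), while TRIM47 ranked 11 (8.61) and TRIM3 ranked 29 (2.65). TRIM58 went from rank 45 (0.0777) to rank 20 (4.61), past genes that had been well above it. TRIM2 went from rank 9 (12.4) to rank 22 (3.96). The lengths join all annotated exons, so a gene with many rarely used exons is placed too low.

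**Figure D3:**
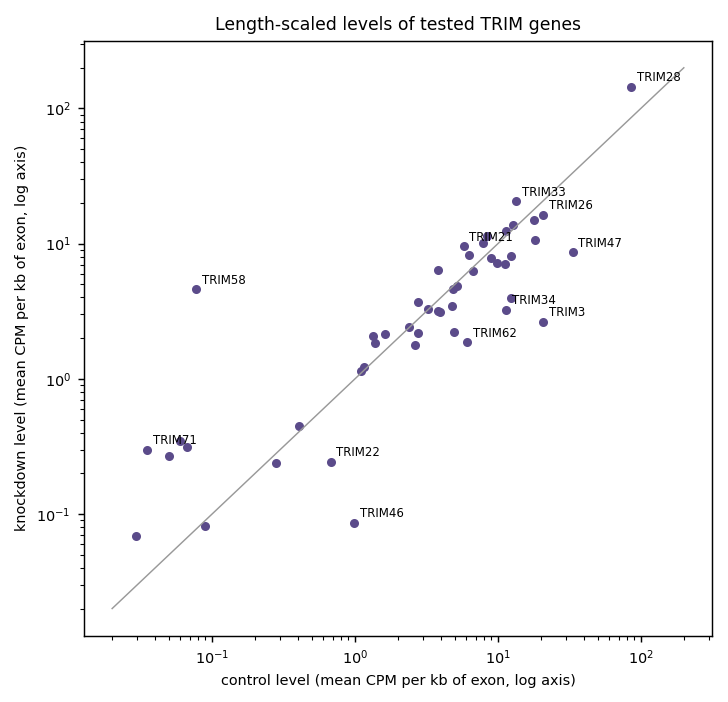
Mean CPM per kilobase of annotated exon in knockdown against control for 49 tested TRIM genes (TRIM31, at 0 in knockdown, and the STAG3L3 row are left out), on log axes with the line of equal level. TRIM28 stands at the top in both groups, TRIM47, TRIM3 and TRIM46 lie below the line, and TRIM58 lies far above it.

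Interferon-inducible TRIM genes, a list that cuts across the classes, did not move as one. Of 10 tested members 7 fell (TRIM34, TRIM22, TRIM14, TRIM5, TRIM26, TRIM38 and TRIM56), and TRIM21, TRIM69 and TRIM25 rose, with a median log2 ratio of -0.33 against 0.02 for all tested genes, of which 37.7% were lower and 39.4% higher. The calls of TRIM5 and TRIM25 were lost with the regional shift removed. TRIM69 rose from 12.9 CPM ± 0.998 to 17.04 CPM ± 1.11 (± SD, 4 libraries per group; log2 ratio 0.41 with SE 0.0717). PML, a TRIM protein under another symbol and itself induced by interferon, had a log2 ratio of -0.23 (SE 0.0783, edgeR adjusted p of 0.0063).

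Promoter windows, from 250 bases before to 50 after 1 start per gene, were matched by symbol in RefSeq (GRCh38.p14) for 44 of the 57 symbols. The interferon-response element searched was GAAA, any 2 bases and GAAA, on either strand. It was present in 9 of the 44 windows (20.5%), against 3.65% of 27303 windows of all genes. These 9 genes did not share a direction: 7 were lower and 2 higher, beside 37.7% lower and 39.4% higher over all tested genes. The call of TRIM5 was lost with the regional shift removed. The windows of TRIM34 and TRIM5, which fell, TRIM21, which rose, and TRIM2, which is not on the interferon list, are shown because the same letters are in the windows of genes that moved differently. Each is written 5′ to 3′ on the strand of the gene, with the element in capitals (TTTC, any 2 bases and TTTC where it is on the other strand).
TRIM34 (chr11:5624751-5625050, plus strand): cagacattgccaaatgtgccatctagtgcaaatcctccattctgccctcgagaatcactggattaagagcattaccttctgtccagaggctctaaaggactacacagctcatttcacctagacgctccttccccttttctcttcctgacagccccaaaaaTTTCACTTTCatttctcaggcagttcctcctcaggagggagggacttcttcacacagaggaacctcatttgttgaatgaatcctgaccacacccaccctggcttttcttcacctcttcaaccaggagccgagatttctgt
TRIM5 (chr11:5685025-5685324, minus strand): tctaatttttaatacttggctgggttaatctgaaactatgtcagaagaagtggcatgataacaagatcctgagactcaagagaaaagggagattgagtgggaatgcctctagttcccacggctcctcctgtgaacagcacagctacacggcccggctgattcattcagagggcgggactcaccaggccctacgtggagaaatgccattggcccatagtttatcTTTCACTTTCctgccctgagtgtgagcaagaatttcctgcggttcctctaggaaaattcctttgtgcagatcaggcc
TRIM21 (chr11:4393653-4393952, minus strand): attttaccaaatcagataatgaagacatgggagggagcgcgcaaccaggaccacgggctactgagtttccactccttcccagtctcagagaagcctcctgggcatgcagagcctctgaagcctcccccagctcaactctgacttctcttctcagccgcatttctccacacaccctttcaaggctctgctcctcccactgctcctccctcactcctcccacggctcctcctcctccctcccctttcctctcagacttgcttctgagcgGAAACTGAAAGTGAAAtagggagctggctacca
TRIM2 (chr4:153151913-153152212, plus strand): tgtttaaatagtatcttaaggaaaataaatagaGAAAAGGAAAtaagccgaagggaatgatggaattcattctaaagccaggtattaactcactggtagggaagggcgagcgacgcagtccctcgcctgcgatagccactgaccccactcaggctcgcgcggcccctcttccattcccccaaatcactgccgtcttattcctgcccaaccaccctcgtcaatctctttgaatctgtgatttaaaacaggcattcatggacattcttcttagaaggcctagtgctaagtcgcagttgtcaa
The element of TRIM34 begins 90 bases before the start and that of TRIM5 27 bases before it. In TRIM2 it begins 217 bases before the start. TRIM21 holds a pair of overlapping matches just after its start. The forkhead letters TGTTTAC and TATTTAC, which FOXA1 is known to bind, were searched on both strands as well. Neither was in any of the 44 windows, against 3.41% and 2.77% of all windows, which says only that these letters are not in these 300 bases.

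CpG sites were counted in the same windows, as a description with no test. The median number of CpG sites was 28.5 in the 6 rises and 10 in the 8 falls with a window, against 16 over the 44 TRIM windows and 14 over all windows. The rises passed the filter through the knockdown group, as said above, so these sets were selected by level, and TRIM47 (36 sites) and TRIM62 (28 sites) fell with windows as rich as those of the rises. The window of TRIM58, which had the largest rise, that of TRIM36, the richest among the rises, and those of TRIM3 and TRIM31, which fell, are shown with each CpG in capitals.
TRIM58 (chr1:247856937-247857236, plus strand): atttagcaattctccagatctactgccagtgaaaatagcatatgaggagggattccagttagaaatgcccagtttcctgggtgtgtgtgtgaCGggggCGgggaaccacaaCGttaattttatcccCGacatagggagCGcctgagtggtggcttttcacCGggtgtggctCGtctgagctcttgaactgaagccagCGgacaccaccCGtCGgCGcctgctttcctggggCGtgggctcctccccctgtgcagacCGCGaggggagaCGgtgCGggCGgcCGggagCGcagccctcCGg
TRIM36 (chr5:115180245-115180544, minus strand): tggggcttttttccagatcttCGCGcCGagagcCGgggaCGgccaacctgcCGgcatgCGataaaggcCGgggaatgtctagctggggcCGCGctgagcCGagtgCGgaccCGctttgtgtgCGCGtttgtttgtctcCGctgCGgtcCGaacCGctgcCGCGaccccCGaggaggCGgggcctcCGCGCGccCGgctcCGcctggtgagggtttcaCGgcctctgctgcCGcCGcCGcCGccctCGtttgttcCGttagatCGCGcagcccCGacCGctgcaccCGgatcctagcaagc
TRIM3 (chr11:6474410-6474709, minus strand): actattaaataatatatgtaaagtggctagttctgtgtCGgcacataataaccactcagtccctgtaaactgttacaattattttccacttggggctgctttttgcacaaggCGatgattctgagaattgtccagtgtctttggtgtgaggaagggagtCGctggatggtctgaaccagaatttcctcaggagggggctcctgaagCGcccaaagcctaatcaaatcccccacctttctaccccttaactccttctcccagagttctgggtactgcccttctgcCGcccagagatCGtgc
TRIM31 (chr6:30113041-30113340, minus strand): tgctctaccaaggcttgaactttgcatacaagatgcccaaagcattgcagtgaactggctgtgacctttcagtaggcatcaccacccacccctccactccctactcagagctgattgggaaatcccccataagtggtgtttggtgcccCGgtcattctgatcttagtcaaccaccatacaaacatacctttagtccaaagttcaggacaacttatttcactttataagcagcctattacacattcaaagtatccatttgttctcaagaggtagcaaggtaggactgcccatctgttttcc
TRIM58 has 20 sites and TRIM36 has 40, while TRIM3 has 6 and TRIM31 has 1. Methylation was not measured in these libraries.

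TRIM proteins act on, or together with, the sensors of foreign nucleic acid and their adaptors. Of 19 tested rows of such partners 4 rose, 11 fell and 4 were not called, with a median log2 ratio of -0.20, beside 39.4% higher and 37.7% lower over all tested genes. The adaptor TICAM1 fell from 30.6 CPM ± 2.05 to 16.5 CPM ± 0.693, TAB3 from 67.9 CPM ± 4.79 to 37.9 CPM ± 1.12 and TAB2 from 157.1 CPM ± 7.35 to 92.3 CPM ± 2.18 (± SD, 4 libraries per group). The RNA sensor gene DDX58 (RIG-I), the partner of TRIM25, had a log2 ratio of -0.36 (SE 0.119) and IFIH1 of -0.56 (SE 0.0723), and the adaptor MAVS of -0.35 (SE 0.0471). The rises were TLR3 (1.16, SE 0.111), STING1 (0.85, SE 0.0532), IRF3 (0.61, SE 0.0314) and MAP3K7 (0.31, SE 0.0596). CGAS was below the filter, with 3 to 10 counts in control and 1 or 2 in knockdown.

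The ubiquitin and SUMO enzymes that TRIM ligases use had 6 of 17 members higher, 8 lower and 3 not called, where 39.4% of all tested genes were higher and 37.7% lower. UBE2E2 changed most, from 10.2 CPM ± 0.534 to 39.9 CPM ± 2.79 (log2 ratio 1.96 with SE 0.0628). UBE2E3 fell from 41.0 CPM ± 1.01 to 22.1 CPM ± 1.13 and UBE2D4 from 26.3 CPM ± 1.77 to 14.9 CPM ± 1.85 (± SD, 4 libraries per group). The ubiquitin-chain enzyme UBE2N, which pairs with several TRIM ligases, was not called (log2 ratio -0.03, edgeR adjusted p of 0.457).

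**Figure D4:**
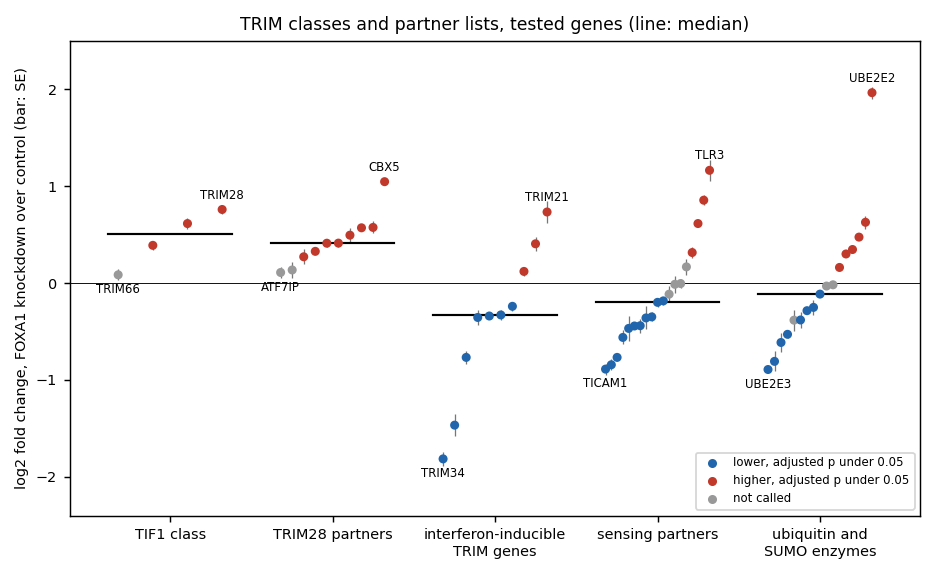
Log2 ratio of each tested gene in the TIF1 class, the TRIM28 partner list, the interferon-inducible TRIM genes, the sensing partners and the ubiquitin and SUMO enzymes, with bars of 1 SE and the list median as a line. The medians are 0.50, 0.41, -0.33, -0.20 and -0.11, and the lowest and highest gene of each list is named.

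TRIM proteins that carry other symbols were read in the same fit. TRIML2, a TRIM-like gene, had 0, 4, 5 and 2 counts in control and 239, 235, 212 and 213 in knockdown (log2 ratio 6.27 with SE 0.79), with control counts around the floor of 3. CMYA5, a large TRIM-related muscle protein, had 9, 12, 7 and 8 counts against 284, 290, 236 and 199 (log2 ratio 4.77 with SE 0.181). TRIML2 and CMYA5 passed the filter through the knockdown group, in which they were higher. MID1, the microtubule-binding ligase of Opitz syndrome, rose from 48.5 CPM ± 1.68 to 64.0 CPM ± 1.18 (± SD, 4 libraries per group). RNF207 was not called (log2 ratio -0.14), and MID2, MEFV, TRIML1 and the read-through genes TRIM6-TRIM34 and TRIM39-RPP21 were below the filter.

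Each member past the threshold with groups that did not overlap gave 0.0286 in an exact two-sided permutation test over the 70 divisions of the libraries, the smallest p that 4 against 4 can give.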

How the data were processed

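RNA was sequenced in 4 control and 4 FOXA1 knockdown libraries of SKBR3 (paired-end reads of 101 bp, per the labels' protocols). The authors deposited whole raw counts per gene under Ensembl identifiers with a symbol column. The submitters' processing notes name FastQC, Salmon 1.9, DESeq2 3.16 and hg38, without roles; if Salmon made the counts, they are rounded estimates in which reads shared by similar genes are divided between them. The annotation release, and whether strand was used, are not given in the sources used here. Positions, exon lengths and overlaps come from GENCODE 29 on GRCh38, which matched 96.5% of identifiers.

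Counts were analysed in R 4.3.3 with edgeR 4.0.16: filterByExpr (minimum count 10, total 15), TMM (factors 0.965 to 1.04), glmQLFit with robust estimation and glmQLFTest, Benjamini-Hochberg adjustment over 16430 genes and a threshold of 0.05. The prior count of the fitted log2 fold changes was 0.125. CPM is the count divided by the TMM-scaled total, times 1000000. SEs come from log2 CPM with 0.5 added to each count, and 95% intervals use them with 6 degrees of freedom. The fit was run on simulated counts in which 200 of 16430 genes were changed. It recovered 181 of them (90.5%), with 11 false calls. Since 77.1% of genes were called in the real data, this does not test the scaling under so wide a change. No 2 libraries of a group agreed within sampling noise (chi-square per degree of freedom at least 2.18). Depth ran from 19087878 to 23786684 counts, where 3 counts are 0.123 to 0.153 CPM, and the biological coefficient of variation was 4.56%.

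Members with a 2-fold call and a mean of at least 20 counts are given in every library; TRIM31 and TRIM67, below that mean, by counts; others with a mean of at least 500 counts, or the smallest change of a class, by group. The members, classes, partner lists and marker lists were chosen with earlier results of these data known. Alternatives were other scalings, no filter or a stricter one, limma voom (limma 3.58.1), DESeq2 1.42.0, a replicate block, each library left out, and removal of the median change of the 50 nearest tested genes.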

Additional observations from a re-analysis of the deposited data

Results flagged for a closer look

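In each group of 4 libraries, the highest and lowest value were compared with Dixon's critical value at 95%, using the gap to the next library over the whole range. Over 102 groups of tested TRIM rows 8 were picked out, where chance gives about 5.1. In control replicate 3, TRIM2 was low (100.6 CPM against 120.1 to 124.0), TRIM52 was low (14.39 CPM against 19.13 to 20.06) and TRIM26 was high (95.69 CPM against 88.9 to 89.7). In control replicate 4, TRIM36 was high (0.3878 CPM against 0.2724 to 0.2849) and TRIM17 was high (1.638 CPM against 1.374 to 1.407). TRIM5 was high in control replicate 2 (15.57 CPM against 12.45 to 12.73). In knockdown, TRIM34 was high in replicate 2 (9.914 CPM against 8.236 to 8.352) and TRIM13 was low in replicate 3 (16.7 CPM against 19.98 to 20.5). No cause was tested for these values.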

How the results depend on the processing

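Under 17 alternatives, 829 of 857 log2 fold changes of tested TRIM rows kept their direction and their side of the threshold, and 35 of 51 rows did so under every alternative run on them. The count of changes of at least 2-fold fell from 15 to 9 when a mean of at least 50 counts was required, since fewer genes are then tested. Leaving out each library in turn gave 22 to 23 lower, 17 to 19 higher and 15 to 15 changed 2-fold, and leaving out the STAG3L3 row (chosen after seeing the data) left 21 lower and 19 higher. With the replicate block there were 22 lower, 19 higher and 15 changed 2-fold. Whether the numbers pair the libraries was not settled. Deviations of same-numbered libraries correlated at 0.09, 0.17, -0.04 and 0.07 for numbers 1 to 4 over 12420 genes, and 3 of 4 numbers correlated best with their own. With the regional shift removed, which needs map positions and takes the median of the 50 nearest genes, 22 were lower and 21 higher, and the direction turned for TRIM32 (0.45), TRIM25 (-0.059), TRIM5 (0.084), TRIM17 (-0.036), TRIM68 (0.28), TRIM73 (0.027), TRIM52 (-0.21), TRIM39 (-0.11) and TRIM59 (0.37); the cause was not tested. Uncalled rows near 0 turned when a library was left out. Over the libraries left out, TRIM72 ranged from -0.232 to 0.032 (0.006 without knockdown replicate 1), TRIM61 from -0.079 to 0.138 (-0.067 without control replicate 2), TRIM39 from -0.006 to 0.067 and TRIM13 from -0.027 to 0.085. TRIM13 was at -0.001 without knockdown replicate 2 and -0.004 without knockdown replicate 4. Calls were lost for TRIM23, TRIM5 and TRIM25 with the regional shift removed, for TRIM25 without control replicate 1 and for TRIM29 without 3 single libraries. Calls were gained with the direction kept in 6 values over 4 rows. Depth limits rows under about 1 CPM, where 3 counts are 0.123 to 0.153 CPM.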
